A study of Mus musculus with 8 samples.

Results

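Peptidergic.488p is 1 of 20 clusters into which the authors divided the cells of mouse dorsal root ganglia, and its members here are the genes that the authors' deposited table lists for it against all other cells. The rule took every listed gene, 2923 of the 9229 genes listed for any cluster. Of these, 651 were higher and 1270 lower in Peptidergic.488p at an adjusted p under 0.05, and 1002 did not pass that filter. These counts are 7.05% and 13.8% of the 9229 genes. The dorsal root ganglia came from C57BL/6 mice aged 21 to 30 days, with the ganglia of 4 mice pooled for each sample. All cells of both sorted populations had been labelled alive for 30 min with antibody against β5, a proteasome subunit, and with a fluorescent secondary antibody for 40 min, then sorted into cells positive or negative for the neuronal membrane proteasome (NMP), a proteasome at the neuronal surface. The 8 samples, 4 NMP-positive and 4 NMP-negative, are lanes, each population having 1 library, and neither population was replicated. The table holds no value for a sample or a population, so neither NMP-positive and NMP-negative cells nor samples could be compared, and what the suffix 488p stands for is not stated.

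Every fold change and share of cells below is the authors' own value. A log2 fold change compares the average level in the cluster with that in all other cells, and a share is the percentage of cells in which at least 1 transcript of the gene was detected. The cluster was defined from the same expression values and cells are not replicates, so "higher" and "lower" describe the cluster and test nothing. The filter lay between Eef1g, just inside (adjusted p = 0.0496, log2 fold change 0.30 in the authors' deposited table), and Clcn5, just outside (0.0501 and -0.36). The number of cells and the depth per cell are not given, so shares carry no counting interval. Droplets also pick up free RNA, and for that reason shares in the 7 clusters named Unknown (those of them in which a gene is listed), whose leading genes are those of vessels, glia, myeloid cells and connective tissue, stand beside those of the main neuronal genes.

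Neurons that express Mrgpra3 are unmyelinated sensory neurons of the skin known for their part in itch. Their receptors of the Mas-related family couple to Gq proteins, which activate phospholipase C and so open cation channels. Textbook accounts separate peptidergic nociceptors, which release CGRP and substance P, from non-peptidergic ones, which carry Mrgprd or other Mas-related receptors, and Mrgpra3 neurons share features of both.

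The 4 genes that the label of the cluster rests on were all higher. Lxn, which codes for the carboxypeptidase inhibitor latexin, had the largest log2 fold change of the cluster in the authors' deposited table (2.71, 98.3% of cells against 60.1%). Mrgpra3, a receptor for chloroquine and other itch-causing compounds, followed at 2.57 and was found in 71.4% of the cells against 0.9% of other cells. The related Mrgpra2b reached 2.40 (79.2% against 19.0%), and Calca, the gene of CGRP, 0.90 (99.1% against 78.9%). Lxn and Calca were not particular to this cluster. In the same table Lxn was higher in Cold.sen (1.97, 99.4% of cells), Low.UMI.Nonpep (0.60), LTMR (1.27, 100%) and Low.UMI.LTMR (1.36) too. For Calca the fold change was larger in Low.UMI.Pep (2.48) and CGRP-e (1.92), and it was higher in CGRP-n (0.80) and CGRP-a (0.59) as well. Of a list of 8 markers of Mrgpra3 neurons, 6 occurred in the table and were higher in Peptidergic.488p. Among them Mrgpra3, Mrgpra2a and Mrgprx1 were in the table only because they were listed for this cluster. The count is therefore no support for the label.

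Of 19 Mas-related receptor genes in a list, 6 were in the table. Mrgpra3, Mrgpra2b, Mrgprb4, Mrgprx1 and Mrgpra2a were higher, and Mrgprd, the receptor of the classical non-peptidergic neurons, was not listed for the cluster. Mrgprb4, known from neurons that respond to stroking of the skin, was detected in 18.6% of the cells and 0.0% of other cells in the authors' deposited table (log2 fold change 0.60). Mrgprx1, a receptor for opioid precursor peptides, was in 35.9% against 7.5% (0.56 in the authors' deposited table), and Mrgpra2a in 29.0% against 6.0% (0.25). Mrgpra3, Mrgprb4, Mrgprx1 and Mrgpra2a were listed for no other cluster, so they are in the table only through this one. The number of receptor genes higher here thus says little about the family. Mrgpra2b was also listed for other clusters. The authors' deposited table gave it in 95.0% of SST cells (1.40), 91.0% of Non-peptidergic cells (0.32) and 0.5 to 3.4% of cells across the 7 Unknown clusters.

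The 5 higher receptor genes are neighbours. RefSeq places 19 protein-coding Mas-related genes on mouse chromosome 7, and the 5 fall within a run of 7 of them, while Mrgprd is the last of the 19. The promoters of the receptor genes, as the 250 bases before the start of each gene in RefSeq (GRCm38.p6, minus strand, written 5′ to 3′), are shown because these genes were higher together and because Mrgpra2a and Mrgpra2b can be confused by sequence. The RefSeq table matched 4 of the 5. The first lies at chr7:47489583-47489832, the second at chr7:48027598-48027847 and the third at chr7:48199179-48199428.
Mrgpra2b: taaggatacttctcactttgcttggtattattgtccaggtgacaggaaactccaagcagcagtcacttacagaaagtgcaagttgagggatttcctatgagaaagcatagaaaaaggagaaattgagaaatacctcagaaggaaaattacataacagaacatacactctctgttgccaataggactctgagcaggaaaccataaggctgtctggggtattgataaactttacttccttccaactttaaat
Mrgprx1: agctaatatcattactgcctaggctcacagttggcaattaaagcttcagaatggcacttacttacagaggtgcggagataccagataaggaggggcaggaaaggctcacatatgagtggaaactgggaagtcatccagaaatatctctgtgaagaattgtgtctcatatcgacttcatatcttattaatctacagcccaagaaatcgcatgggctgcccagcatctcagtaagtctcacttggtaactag
Mrgprb4: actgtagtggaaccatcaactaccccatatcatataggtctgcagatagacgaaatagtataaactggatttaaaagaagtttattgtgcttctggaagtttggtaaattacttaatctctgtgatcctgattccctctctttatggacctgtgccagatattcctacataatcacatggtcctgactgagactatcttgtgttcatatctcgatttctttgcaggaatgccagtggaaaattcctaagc
The promoter of Mrgpra2a, at chr7:47452165-47452414, matched that of Mrgpra2b at 250 of 250 bases. Mrgpra2b and Mrgprx1 matched at 53.4% of aligned positions, and Mrgpra2b and Mrgprb4 at 46.9%. The letters TGTGGT, the core bound by Runx factors, and CCGGAA, a longer form of the GGAA core bound by ETS factors, were searched on both strands. Neither was in these windows, against 14% and 12% of all 32851 promoter windows of that length. The shorter GGAA was not searched for, and it does occur in each printed sequence.

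The transcripts bear on how the receptors were counted. The longest GENCODE transcripts of Mrgpra2a and Mrgpra2b were identical at 97.2% of aligned positions, and 87.1% of the 50-base windows of Mrgpra2a occurred exactly in Mrgpra2b. Reads of these 2 genes can therefore be hard to assign, and how such reads were counted is not stated. Mrgpra3 matched Mrgpra2b at 78.2% of aligned positions, and no 50-base window was shared between any other pair of the 5 receptor genes.

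**Figure D1:**
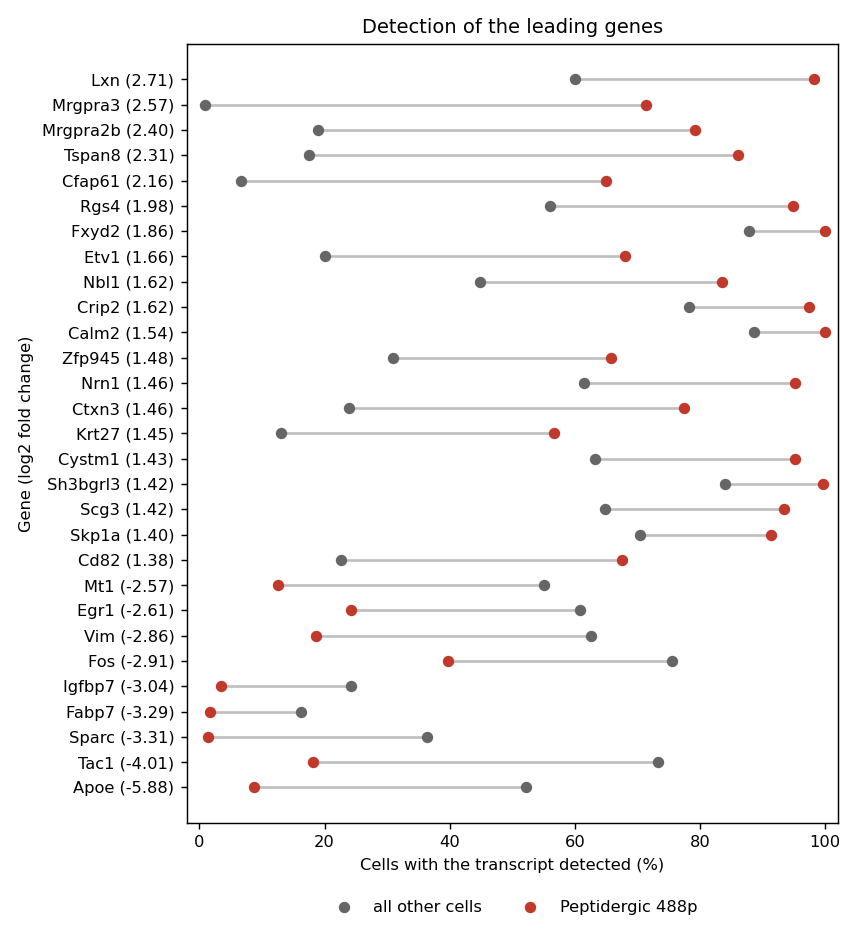
Share of cells with the transcript in Peptidergic.488p (red) and in all other cells (grey) for the 20 genes of largest and 9 of the 10 of smallest log2 fold change, which is given beside each name. Mrgpra3 and Cfap61 were below 10% of other cells, whereas Fxyd2 and Calm2 were in 100% of the cluster's cells and in over 87% of other cells.

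Beyond the receptors, the leading genes were of varied function. Tspan8, which codes for a tetraspanin of the cell surface, had a log2 fold change of 2.31 in the authors' deposited table (86.1% of cells against 17.5%, and 0.7 to 3.4% in the Unknown clusters) and was also high in SST (2.48, 98.3% of SST cells). Cfap61, a gene of cilia and flagella, reached 2.16 (64.9% against 6.7%) and was listed for no other cluster. Rgs4, a brake on G protein signalling, stood at 1.98 in the authors' deposited table (94.8% of cells, and 11.3 to 20.9% in 6 Unknown clusters), Fxyd2, a regulatory subunit of the sodium pump, at 1.86 (100%, and 62.3 to 72% in the Unknown clusters), and the transcription factor gene Etv1 at 1.66. Rgs4 was also higher in Low.UMI.Nonpep (1.39), Non-peptidergic (1.36) and LTMR (0.88). Fxyd2 was also higher in LTMR (1.70), Low.UMI.Nonpep (1.57), Low.UMI.LTMR (1.41), Non-peptidergic (1.34) and SST (0.86). Krt27 (1.45, 56.7% against 13.0%) and Krt25 (0.82, 42.4% against 8.2%) code for hair follicle keratins, and both were higher. Krt25 was also higher in LTMR (0.25, 71.2% of cells) and Cold.sen (0.26, 39.2%). Gda, the gene of guanine deaminase, was in 51.5% of the cells against 4.4% (1.31 in the authors' deposited table) and was higher in 1 other cluster, Unknown.488p (0.94, 19.9%).

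How widely the higher genes were shared differed from gene to gene. Of the 651 higher genes, 242 had their largest log2 fold change of all 20 clusters here, 119 were also higher in at least 5 other clusters, and 68 were higher in no other cluster. The last count was 130 when the 3 Low.UMI clusters, which the authors named for few transcript molecules per cell, were left out of the other clusters. By fold change the 68 were led in the authors' deposited table by Mrgpra3, Cfap61 and the zinc finger gene Zfp945 (1.48, 65.8% against 31.0%), followed by Krt27, Agap3 (0.92), Degs1 (0.87), Timm8a1 (0.77) and Pdcd2 (0.64). Cacng2, which codes for stargazin, an auxiliary subunit of AMPA receptors, was also among them (0.63, 35.9% against 4.8% in the authors' deposited table). Mrgpra3, Cfap61, Krt27 and Cacng2 were listed for no other cluster, and a gene not listed was not read as absent. Matching counts for other clusters are not given, so the counts here cannot be ranked against theirs.

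The fractions of the table also give where the detecting cells lie. Peptidergic.488p held 2.94% of all cells. Of the cells with an Mrgpra3 transcript, 70.6% were in Peptidergic.488p (69.5 to 71.8% with the rounding of the fractions), and of those with an Mrgprb4 transcript at least 91.8%. These were the 2 of the 651 higher genes with more than 50% of their detecting cells here. The predicted gene Gm6213 followed at 34.8%, the protease gene Tmprss11c at 34.7%, Fam183b at 32.4%, Gda at 26.2%, Cfap61 at 22.7%, the synapse organiser gene Cbln1 at 22.1% and the potassium channel gene Kcnq3 at 19.5%. The median over the 651 genes was 3.67%, and 40 genes exceeded 10%, so most higher genes were detected mainly in cells outside the cluster.

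**Figure D2:**
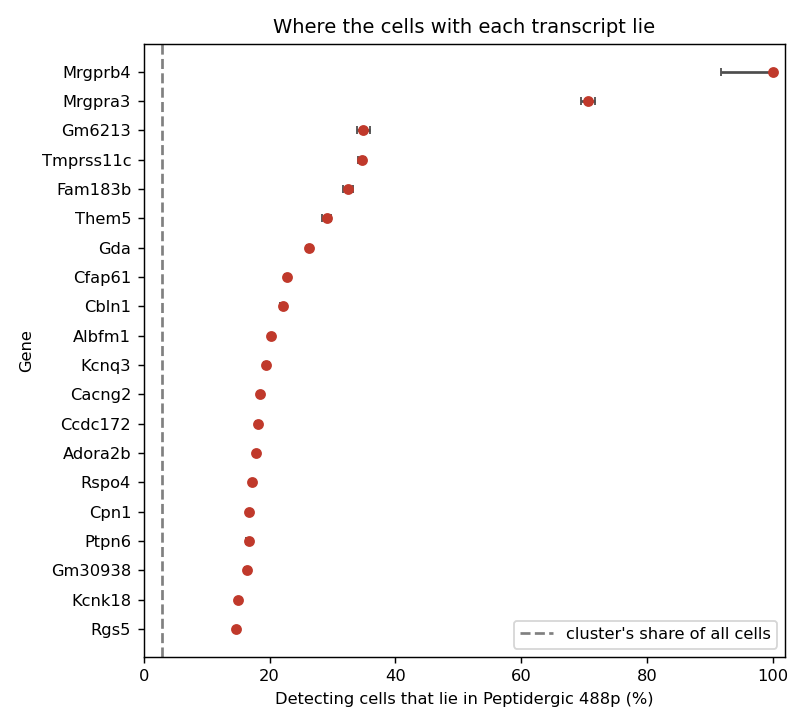
Percentage of all cells with a transcript that lie in Peptidergic.488p, for the 20 higher genes with the largest values; bars give the limits set by the rounding of the deposited fractions, and the dashed line marks the 2.94% of all cells that the cluster held. Mrgprb4 and Mrgpra3 stand apart from the other genes, which lie at or below 34.8%.

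Neuropeptide genes were divided. Of 13 in the table, Calca, Nmb and Calcb were higher and Tac1, Gal, Adcyap1, Cartpt and Nppb lower, with a median log2 fold change of -0.56 over the 9 listed, against -0.32 over all 2923 genes listed for the cluster. Nmb, the gene of the itch-related peptide neuromedin B, was at 0.73 in the authors' deposited table (70.1% of cells against 45.4%, and 4.1 to 14.2% in the Unknown clusters), and Calcb, the second CGRP gene, at 0.58 (72.3%, and 4.8 to 12.8%). Nmb was also higher in Low.UMI.Nonpep (1.09), Non-peptidergic (0.61, 98.8% of cells) and CGRP-e (0.59), and lower in SST (-0.28, 95.2%). Calcb was also higher in Low.UMI.Nonpep (1.18), Non-peptidergic (0.89, 98.5%), Low.UMI.Pep (0.88) and CGRP-e (0.51), and lower in SST (-1.67). Calca was in 99.1% of these cells, and in 34.2 to 61.0% across the Unknown clusters. Tac1, the gene of substance P, was at -4.01 in the authors' deposited table and in 18.2% of the cells, a smaller share than in any Unknown cluster (31.5 to 47.2%). How much of its detection here was free RNA was not tested, and depth per cell is not given. Nppb, the gene of the itch transmitter of SST cells, was in a larger share of these cells than of other cells (20.3% against 7.0% in the authors' deposited table) although its average was lower (-0.56), and in SST cells it was in 99.6%.

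Markers of peptidergic neurons did not move as a set. Of 15 measured, 3 were higher, among them Calca and Calcb, and 7 lower. Gfra3, the artemin co-receptor gene, was at -0.90 and Kit at -0.79 in the authors' deposited table. Genes of Mrgprd-type neurons were higher for 6 of 17 and lower for 3, led in the authors' deposited table by Cd55 (1.31), Plxnc1 (1.06) and Scn11a (0.97), with Lgals1 (-1.76), Gfra2 (-0.85) and Lpar3 (-0.61) lower. Of the peptide genes, those of CGRP and neuromedin B were higher, while the substance P, galanin and PACAP genes were lower.

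Genes of secretory granules were higher more often than lower. Of 13 genes for peptide processing and dense-core granules 7 were higher and 2 lower, with a median of 0.79 over the 9 listed. Scg3, which codes for a granule sorting protein, was at 1.42 in the authors' deposited table (93.5% against 64.8%), Resp18 at 1.12, the prohormone convertase gene Pcsk2 at 0.85 and its partner Scg5 at 0.79. Pam, the gene of the enzyme that amidates peptides, was lower (-0.98 in the authors' deposited table), as was Chgb (-0.60).

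Of 15 receptors for growth factors 2 were higher, among them Gfra1, which codes for the GDNF co-receptor, and 7 were lower. Gfra1 was at 1.29 in the authors' deposited table, in 56.3% of the cells against 22.3%, and was also in 83.3% of SST cells (0.44) and in 51.1% of the cells of both Unknown.4 (1.96) and Unknown.6 (1.53). The lower members were Ntrk2 (-0.96 in the authors' deposited table), Gfra3, Gfra2, Fgfr1, Kit, Igf1r and Insr.

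The table held 22 other itch receptor and signalling genes, 15 of them not listed for the cluster. Of the 22, 2 were higher and 4 lower (9.09% and 18.2%), near the 7.05% and 13.8% of all genes. The higher ones were Plcb3, the phospholipase that acts downstream of histamine and Mas-related receptors (0.84 in the authors' deposited table, 62.3% against 40.1%, and 5.0 to 15.0% in 6 Unknown clusters), and Gna14, which codes for a Gq-family subunit (0.81, 58.4% against 23.3%). Plcb3 was also higher in Non-peptidergic (1.01, 99.3% of cells) and SST (0.61, 95.0%). Ednrb (-0.89), S1pr3 (-0.73), Lpar3 and Stat3 (-0.55) were lower in the same table. Of 8 markers of the SST itch neurons, 1, Nppb, was listed. Among all 42 G protein and RGS genes listed for any cluster, 10 were higher and 6 lower, a list added after the values had been seen. The authors' deposited table gave 1.98 for Rgs4, 1.35 for Rgs5 (61.0% against 10.8%), 0.97 for the Go subunit gene Gnao1 and -0.93 for Gng11.

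Ion channel genes were called in both directions, in shares that for the transduction channels (9.09% higher, 4.55% lower) lay near or below those of all genes. Of 22 sensory transduction channels 2 were higher, among them the diacylglycerol-gated Trpc6 (0.54 in the authors' deposited table, 35.9% against 11.6%), and Trpm3 (-1.11) was lower. Trpc6 was also higher in Non-peptidergic (0.35, 93.2% of cells). Trpv1, the capsaicin receptor gene, was in 30.7% of these cells, 37.2% of other cells and 0.9 to 3.7% across the Unknown clusters (-0.56, not past the filter, in the authors' deposited table). Piezo2 (-0.88), Trpm8 (-0.42), Trpv2 (-0.27) and Trpm4 (0.26) were listed without passing it. Trpa1 was not listed for the cluster. Genes of sodium channels and their modulators were higher for 3 of 15 (20%) and lower for 1 (6.67%). The higher ones were Scn11a (76.6% against 44.2%, and 2.1 to 6.4% in the Unknown clusters), Scn10a (0.74) and Fgf13 (0.43), and Scn3a was lower (-0.26 in the authors' deposited table). The first pair codes for the channels of nociceptors that resist tetrodotoxin. Scn11a was also higher in Low.UMI.Nonpep (1.64), Non-peptidergic (1.14, 100% of cells), SST (0.60) and CGRP-a (0.54).

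Genes of potassium channels and their auxiliary proteins were higher for 7 of 40 and lower for 7, and 3 of the higher ones reached a log2 fold change of 0.5. Kcnk18, which codes for the leak channel TRESK, was at 0.79 in the authors' deposited table, in 44.6% of the cells against 7.7%, and otherwise higher in Non-peptidergic (0.46, 91.3%). Kcnip4 (0.66), Kcnd1 (0.54) and Kcnt1 (0.49) were higher, and Kcnab1 (-0.97), Kcnc2 (-0.86) and Kcnq5 (-0.76) lower, in the same table. Of 17 calcium channel genes Cacng2 and Cacnb3 (0.48 in the authors' deposited table) were higher and 4 lower, among them Cacna1e, detected in 0.0% of the cells against 19.8%. None of 22 glutamate and GABA receptor genes was higher and 6 were lower, led by Grik2 (-0.71) in the authors' deposited table. Galr1, an inhibitory galanin receptor gene, was the higher member of 21 inhibitory and modulatory receptors (0.53 in the authors' deposited table, 38.5% of cells against 13.2%, and 0.0 to 1.0% in the Unknown clusters), and 6 were lower, led by Lpar1 (-1.11) and Npy1r (-0.81).

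In a list of 13 genes for nucleotide breakdown and adenosine signalling, added after the values had been seen, 5 were higher and 3 lower. Acpp, which codes for prostatic acid phosphatase, was at 1.33 in the authors' deposited table (78.8% against 34.8%, and 5.2 to 11.6% in the Unknown clusters), Adk, which codes for adenosine kinase, at 1.08, the adenosine receptor gene Adora2b at 0.69 (36.8% against 5.1%), Entpd3 at 0.60 and Nt5e at 0.46. Acpp was also in 99.8% of Non-peptidergic cells (1.10) and 96.5% of SST cells (1.00), while Entpd1 (-0.58), Slc29a1 (-0.51) and Adora1 (-0.30) were lower here. Subunits of the sodium pump went the other way from Fxyd2: of 12 such genes, also listed after the values had been seen, 2 were higher and 8 lower, among them Fxyd7 (-2.09) and Atp1b1 (-1.78) in the authors' deposited table.

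Transcription factors of sensory neurons were higher about as often as all genes (7.32% against 7.05%) and lower for 26.8% against 13.8%. Of 41 in the table, Etv1, Tlx3 (0.80 in the authors' deposited table) and Prdm12 (0.45), the last a regulator of nociceptor identity, were higher and 11 lower (7 at a log2 fold change of -0.5 or less). Etv1 was in 68.0% of the cells against 20.0% and, in the same table, in 96.5% of SST cells (1.81) and 51.8% of Unknown.6 cells (0.99). Runx1, which directs the development of non-peptidergic neurons and their Mas-related receptors, was lower (-1.37 in the authors' deposited table, 31.2% against 54.2%), whereas in Non-peptidergic cells it was higher (0.65, in 100%), as it was in Unknown.488p (1.84, in 86.3%). Zeb2 (-1.79, 2.6% against 43.4%), Atf3 (-1.49) and Nfia (-1.04) were lower as well. Isl2 (1.34) and Tlx2 (0.88) belong to no list here and were noticed for their values in the authors' deposited table.

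**Figure D3:**
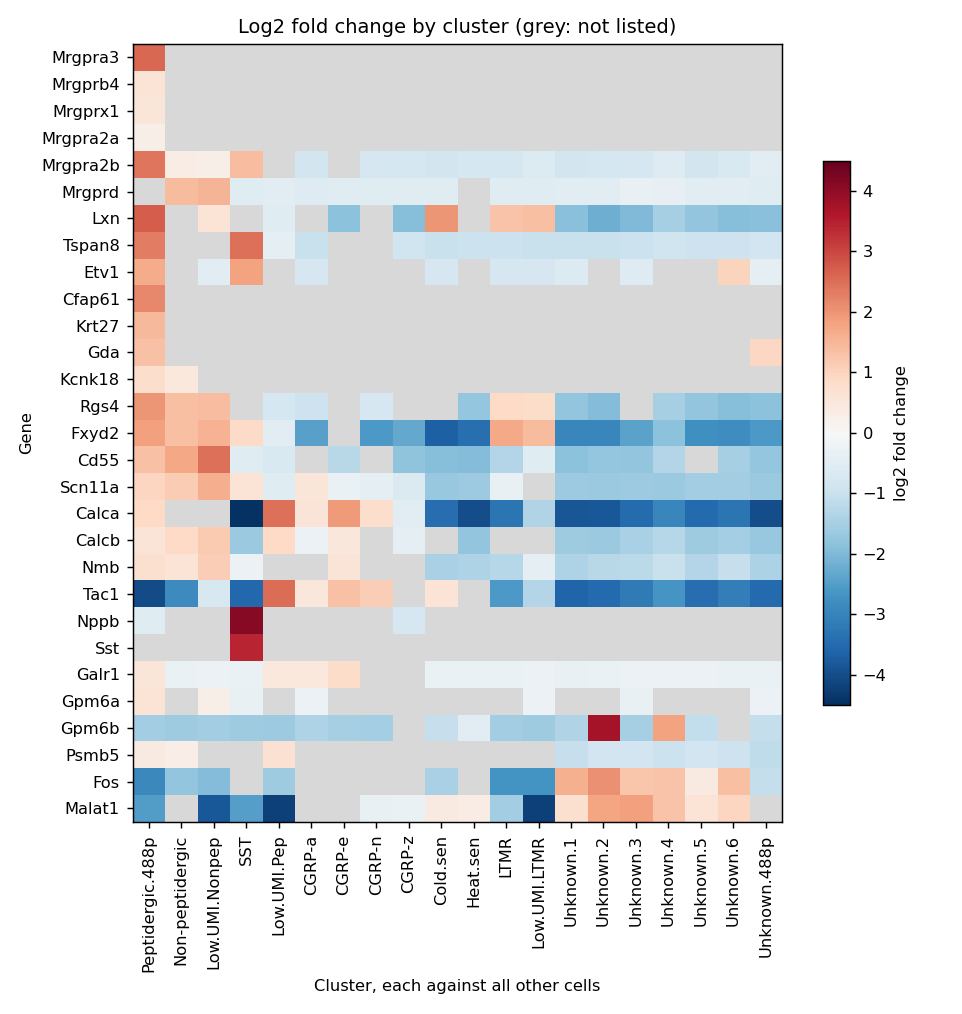
Log2 fold change of 29 genes (rows) in each of the 20 clusters (columns), each against all other cells, in the authors' deposited table; red is higher, blue lower and grey not listed. Mrgpra3, Mrgprb4, Mrgprx1, Mrgpra2a, Cfap61 and Krt27 have a value for Peptidergic.488p alone, and Tac1 is at -4.01 there.

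Genes of the axonal cytoskeleton were higher more often than any other list of at least 10 genes. Of 36 members 21 were higher and 3 lower, with a median of 0.75 over the 27 listed. Nefl, a neurofilament gene, was at 1.28 in the authors' deposited table, Tubb2b at 1.21, the growth cone gene Gap43 at 1.15 and the neuronal tubulin gene Tubb3 at 1.13 (99.1% against 74.4%, and 24 to 36.7% in the Unknown clusters). Tubb3 was also higher in Low.UMI.Pep (1.04), SST (0.73, 99.6% of cells), CGRP-e (0.61), CGRP-n (0.52), CGRP-a (0.42), Low.UMI.Nonpep (0.40) and CGRP-z (0.38). Of 17 vacuolar proton pump genes 8 were higher and none lower (Atp6v0d1 0.92 in the authors' deposited table), and of 17 glycolysis genes 6 were higher and none lower (Tpi1 1.01), both lists added after the values had been seen.

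The proteasome, whose subunit β5 was the target of the sorting antibody, was higher for 10 of 42 genes and lower for 2, and of these 1 in each direction reached a log2 fold change of 0.5. Psmb5, which codes for β5, was at 0.39 in the authors' deposited table, in 79.2% of the cells, 68.7% of other cells and 34.7 to 55.7% across the Unknown clusters. It was also higher in Low.UMI.Pep (0.69) and Non-peptidergic (0.30). Psmb1 had the largest fold change of the family (0.58 in the authors' deposited table), and the activator genes Psme1 (-0.55) and Psme4 (-0.36) were lower. Transcript levels say nothing of surface proteasome, and NMP status is not given for the cluster. Gpm6a and Gpm6b code for neuronal and glial membrane glycoproteins. Gpm6a was higher (0.62 in the authors' deposited table, 40.7% against 13.1%), and Gpm6b, which was in 96.9% of Unknown.2 cells, lower (-1.58, 0.9% against 18.7%).

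Nuclear genes of oxidative phosphorylation and mitochondrial genes differed in direction. Of 90 nuclear genes 17 were higher and none lower, but only 2 of the 17 reached a log2 fold change of 0.5, led in the authors' deposited table by Atp5mpl (0.75) and Ndufv3 (0.53). Of 13 mitochondrially encoded genes none was higher and 11 were lower, from mt-Nd5 (-0.93, 40.3% against 65.1%) to mt-Atp8 (-0.40) in the authors' deposited table, and 6 of the 11 reached -0.5. Ribosomal protein genes were higher for 10 of 82 and lower for 2, with 1 in each direction at 0.5 or beyond. Ubiquitin genes were higher for 7 of 36 and lower for 4, with Skp1a, an adaptor of ubiquitin ligases, at 1.40 in the authors' deposited table. Heat shock and chaperone genes were higher for 7 of 28 and lower for 5. At 0.5 or beyond, 3 ubiquitin genes were higher, and 3 chaperone genes were higher and 3 lower.

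The immediate early genes, which neurons switch on within minutes of stimulation or dissociation, were largely lower. Of 28 measured, 21 were lower and none higher, with a median of -1.45 over the 22 listed. The authors' deposited table gave -2.91 for Fos (39.8% of cells against 75.5%), -2.61 for Egr1 (24.2% against 60.8%), -2.46 for Jun and -2.12 for Fosb. Fos was in 61.6 to 96.0% across the Unknown clusters, and its fold changes were above 0 in 6 of them. Egr1 was also lower in LTMR (-2.40, 78.0% of cells), SST (-1.44), Low.UMI.Nonpep (-2.15, 7.6%), Low.UMI.LTMR (-2.49, 3.5%) and Low.UMI.Pep (-2.08, 10.3%), and at -2.19 without passing the filter in Non-peptidergic, in the authors' deposited table. Fos was lower in Low.UMI.Nonpep as well (-1.96, 29.6%). The part of depth per cell in these values was not tested.

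Synaptic adhesion genes, which are among the longest of the genome, were lower for 22 of 49 and higher for none. Ptprd was at -1.71 in the authors' deposited table, Kirrel3 at -1.43, Ctnna3 at -1.29 and Sdk1 at -1.15. Long non-coding RNAs kept in the nucleus were lower for 4 of 14, and Gas5 was higher (0.52). Malat1, the most abundant of them in most tissues, was in 44.6% of the cells against 81.4% (-2.52 in the authors' deposited table). The same table gave shares of 42.7% in Low.UMI.Nonpep (-3.81), 37.8% in Low.UMI.Pep and 27.4% in Low.UMI.LTMR, but 94.1% in SST and 97.3 to 100% in the 6 Unknown clusters in which it was listed.

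**Figure D4:**
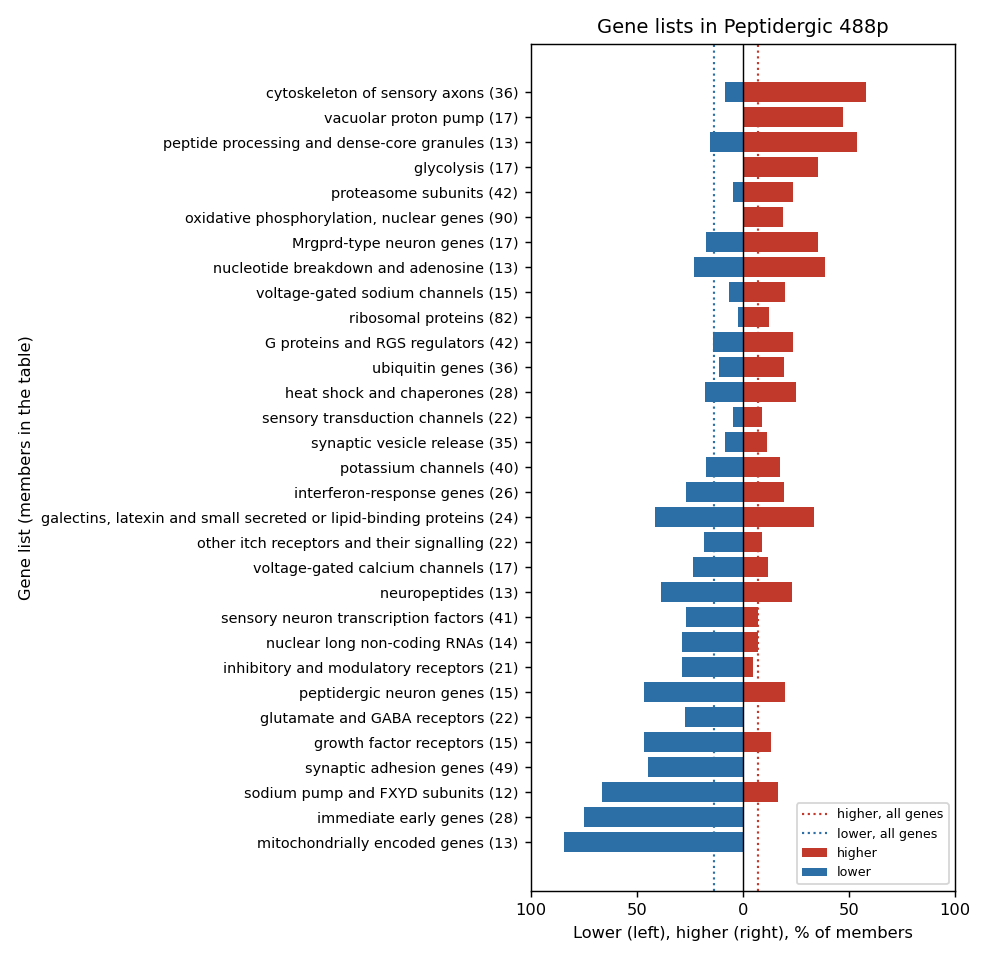
Percentage of the members of each gene list with at least 10 genes in the table that were higher (red, to the right) or lower (blue, to the left) in Peptidergic.488p; the dotted lines mark the 7.05% and 13.8% of all genes. Cytoskeletal genes lie at the higher end (21 of 36), and mitochondrially encoded (11 of 13) and immediate early genes (21 of 28) at the lower end.

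The higher and lower genes differed in length. The span of a gene, from start to end in RefSeq and introns included, was available for 99.2% of the higher and 98.5% of the lower genes. The median was 14.4 kb for the higher genes (quartiles 6.16 and 38.1 kb) and 78.5 kb for the lower genes (24.5 and 170 kb), against 30.5 kb for all genes of the table. Of called genes under 5 kb 55.9% were higher, and of those of 200 kb or more 8.8%. Low.UMI.Nonpep, with 10.9% of all genes higher and 21% lower, had medians of 15.9 and 93.9 kb. The medians were 39.6 and 52.2 kb in SST (12.5% higher and 10.7% lower) and 52.2 and 49.1 kb in Non-peptidergic (9.86% and 9.71%). These comparisons share most of their other cells. Long genes, Malat1 and mitochondrial transcripts were thus lower in Peptidergic.488p together with the adhesion genes, and the part of depth or RNA quality in this was not tested.

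**Figure D5:**
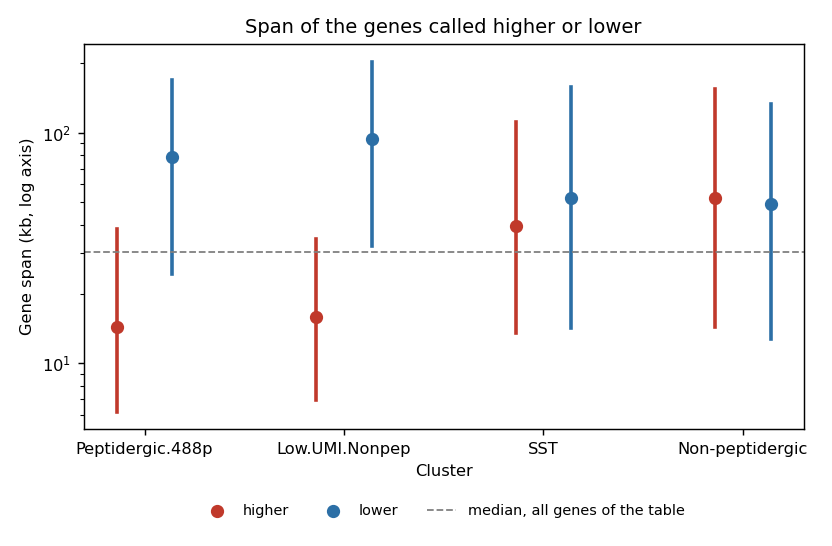
Span of the genes called higher (red) or lower (blue) in 4 clusters on a log axis in kb; points are medians and lines reach from the lower to the upper quartile. In Peptidergic.488p and Low.UMI.Nonpep the higher genes have medians of 14.4 and 15.9 kb and the lower genes of 78.5 and 93.9 kb, while in SST and Non-peptidergic the medians lie between 39.6 and 52.2 kb.

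Among markers of other cell types 2 were higher, and the others were lower, listed without passing the filter or not listed. Of 8 satellite glia markers 6 were lower, led by Apoe (-5.88 in the authors' deposited table, 8.7% against 52.2%), the smallest fold change of the cluster. Lower too were 2 of 8 Schwann cell markers, 4 of 7 endothelial markers (Flt1 -2.03, in 0.0% of the cells), and 1 of 7 fibroblast markers (Col1a2 -1.58), in the authors' deposited table. None of 8 macrophage markers, nor the red blood cell marker in the table, was listed. The higher ones were Rgs5 among 7 mural markers, of which 2 were lower (Rgs5 was in 61.0% of the cells and 0.7 to 62.3% of those of the Unknown clusters), and Rarres1 among 6 markers of touch C fibres (0.36 in the authors' deposited table, 60.2% against 26.3%), of which Th (1.7% of cells) and Zfp521 were lower. Of the cold neuron and A-fibre markers, Foxp2 (-0.49) and Ntrk2 were lower and none was higher.

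Peptidergic.488p was set beside Non-peptidergic, Low.UMI.Nonpep and SST, and Tac1, Rgs5 and Galr1 are given as examples chosen after their values were seen. Each comparison includes the cells of the others, so values are given side by side without a test. Shares of cells, which do not depend on the other cells, were 98.8% in Non-peptidergic, 64.1% in Low.UMI.Nonpep, 61.8% in SST and 18.2% in Peptidergic.488p for Tac1 in the authors' deposited table, and its fold changes were below 0 in all 4. For Rgs5 they were 23.1%, 1.3%, 4.6% and 61.0% in the same order, and for Galr1 2.7%, 0.5%, 0.2% and 38.5%, with fold changes above 0 in Peptidergic.488p and below 0 in the other 3 for both genes. Rgs5 was also higher in LTMR (1.44), and Galr1 in CGRP-a (0.47) and CGRP-e (0.83). For Cd55 they were 100%, 72.3%, 96.1% and 85.3% in the same order (8.2 to 19.0% in 6 Unknown clusters), and for Tmem233, the gene of a small membrane protein, 99.8%, 76.2%, 100% and 91.3% (6.8 to 14.9% in the Unknown clusters). For Mrgpra2b the order was 91.0%, 13.5%, 95.0% and 79.2%. Ly86 was in 67.5% of Peptidergic.488p cells (1.32 in the authors' deposited table), 94.2% of Non-peptidergic cells (1.58), 32.7% of Low.UMI.Nonpep cells and 67.8% of the cells of Unknown.488p, whose leading genes are myeloid (1.28).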

How the data were processed

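Transcript 3′ ends of single cells were sequenced for 8 samples, which are lanes of 1 library for each sorted population, per the labels. The values used were the p-values, log2 fold changes and fractions of cells that the authors deposited for each gene and cluster, per the file headers. Seurat is named in the submitters' processing notes. Aligner, build, cell filters, normalization and doublet treatment: not given in the sources used here. No listed p exceeds 0.01, no absolute log2 fold change is under 0.25, and the larger fraction is at least 10%, so a gene not listed was not read as absent.

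Genes were called higher or lower at the authors' adjusted p-value under 0.05, a filter and not a test of samples. The share of all cells in each cluster was solved by least squares from the fractions of 6742 genes whose fractions differed by 5 percentage points or more (residual 0.0274 percentage points), and the share of detecting cells follows from it. Calculations used Python 3.11.15 with pandas 2.3.3 and NumPy 2.4.6, and Biopython 1.88 for alignments, and were tested on simulated data. RefSeq symbols matched 9072 of 9229 genes. The members, the 39 gene lists and the 7 lists added later were chosen with earlier results of these data known. Named were the 20 largest and 10 smallest fold changes among genes whose shares differed by 10 percentage points or more, the 10 largest differences in share, up to 10 genes higher in no other cluster, up to 4 members of each list (all members of the receptor, peptide, transduction channel and transcription factor lists) and fixed markers. Predicted genes were left out of the first. A few genes that the rule names are not reported here. Genes outside this rule that are named were chosen after their values were seen. The clusters for comparison were to be those with the largest share of higher genes in common. SST, as the other itch neuron cluster, and Non-peptidergic were also named for it. Non-peptidergic, Low.UMI.Nonpep and SST shared 281, 283 and 272 of the 651 higher genes, and counts for other clusters are not given.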

Additional observations from a re-analysis of the deposited data

How the results depend on the processing

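The counts depended on the thresholds, and the depth per cell, which limits detection, is not given. With a minimum log2 fold change of 0.5, 357 genes were higher and 669 lower, and the higher genes shared with Non-peptidergic, Low.UMI.Nonpep and SST numbered 91, 109 and 95. With a minimum of 1, 70 genes were higher and 165 lower, 42 had their largest value in Peptidergic.488p, 27 were higher in no other cluster, and 15, 16 and 18 were shared. Without the filter on adjusted p, 983 were higher, 1940 lower and 503 shared with Low.UMI.Nonpep. With the Low.UMI clusters left out, 130 were higher in no other cluster. The other 21 recomputed values, among them every count that required 25% of cells and the 70.6% of Mrgpra3-detecting cells, stayed within 1.5 times, or within rounding for that share. They include the higher and lower counts, and those shared with Non-peptidergic and SST, without the Low.UMI clusters. Leaving those clusters out could not change these counts, so they say nothing of stability. The 338 list genes called numbered 236 with the minimum of 0.5, and 19 of 92 counts of single lists moved by more than 1.5 times. No paired analysis was possible because the table holds no value for a sample.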

Other observations

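Genes that respond to interferon were divided in Peptidergic.488p. In a list of 26 genes, added after the values had been seen, 5 were higher and 7 lower. The authors' deposited table gave 0.95 for Ifi27l2a (46.8% of cells against 15.2%), 0.73 for Ifi27, 0.72 for the class I antigen gene H2-D1, 0.55 for Ifit3 (36.8% against 10.1%) and 0.36 for Ifit3b (29.9% against 5.6%). In the same table Ifitm3 was at -1.99 and in 0.0% of the cells against 28.1%, B2m, which codes for the partner chain of class I antigens, at -1.23, Irf1 at -1.04 and H2-K1 at -0.72. H2-D1 and H2-K1 are closely related class I genes whose reads can be hard to assign, and they stood on opposite sides.

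Of 35 genes of vesicle release 4 were higher and 3 lower, or 11.4% and 8.57%, against 7.05% and 13.8% of all genes. Another 9 were listed without passing the filter and 19 were not listed for the cluster. Sncg was at 0.76 and Snap25 at -0.82 in the authors' deposited table. Of 24 genes for galectins, latexin and other small secreted or lipid-binding proteins 8 were higher and 10 lower. In the authors' deposited table the members included Anxa5 at 1.26, Anxa2 at 1.04, S100a6 at 0.85 and S100a11 at -0.91.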
